A study of Mus musculus with 9 samples.

Results

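The Hox genes described here are the members of the HoxA, HoxB, HoxC and HoxD clusters with paralogue numbers 1 to 13. They were chosen by name, as probe sets annotated to exactly 1 symbol of that form, and not by their values. Of 19938 genes tested, 37 met this rule, each through 1 probe set: 10 of HoxA and 9 each of HoxB, HoxC and HoxD. The study hybridised RNA from mouse back skin at postnatal day 4 to 9 Affymetrix whole-transcript arrays, and each array carries its own preparation. The first group of 4 arrays (replicates 3, 4, 5 and 6) holds SKPs, skin-derived precursors, a cell population cultured from skin suspensions and taken as primary spheres. The second group of 5 arrays (replicates 2, 16, 17, 18 and 20) holds uncultured cells of Sox2:EGFP animals, a reporter of Sox2, that passed a sort for EGFP and for absence of CD34. Both groups came from the back, and the labels give no strain for the SKP mice. Culture, sorting and the choice of cells differ together between the groups and cannot be told apart.

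Hox genes encode homeodomain transcription factors that give cells their position along the body. Within a cluster the genes lie in the order of their paralogue numbers, and low numbers are switched on earlier and further towards the head than high numbers. Dermal fibroblasts keep much of this pattern after development, so that the Hox genes a skin cell uses reflect the body region it came from. Genes with the same number in different clusters are paralogues that arose by duplication of an ancestral cluster.

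Values are log2 levels from RMA, the standard background adjustment, quantile normalization and probe summary for Affymetrix arrays. A level was called above background where it exceeded the 95th percentile of 1027 olfactory receptor genes on the same array, a limit of 5.95 to 6.26. Probes differ in how brightly they hybridise, so a level is compared between samples for 1 gene, and the Hox genes are not ranked against each other. Differences are SKP minus sorted cells, tested with limma across all genes, and a gene is called higher or lower at a Benjamini-Hochberg adjusted p under 0.05. The number of arrays limits the precision. Nothing in the labels says whether preparations of 1 group shared a litter or a day.

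The arrays differed in cell type markers, and within the sorted group replicates 2 and 20 were unlike replicates 16, 17 and 18. The mean level of 10 dermal papilla markers was 6.02 to 6.29 on the SKP arrays, against 10.27 in sorted replicate 2, 9.86 in sorted replicate 20, and 11.09 to 11.28 in the remaining 3. All 10 were lower in SKPs, and Lepr, Rspo2 and Prom1 were at background on every SKP array. Sox2 is among the 10, and its difference is not independent of the sort, which selected on its reporter. Sox2 was at 9.25 and 8.97 in sorted replicates 2 and 20, against 8.61, 8.40 and 8.24 in the remaining 3. Prom1 was at 7.97 and 8.34, against 6.57, 6.58 and 6.47. The other papilla markers were lower in replicates 2 and 20 than in the remaining 3. The 10 keratinocyte markers averaged 6.40 to 6.77 in SKPs, against 10.23 in sorted replicate 2, 11.91 in sorted replicate 20, and 9.16 to 9.32 in the remaining 3. For 7 markers of the hair shaft and inner root sheath the mean was 5.84 to 6.14 in SKPs, 7.64 and 7.25 in sorted replicates 2 and 20, and 10.42 to 10.50 in the remaining 3. The 9 measured fibroblast markers averaged 11.87 to 11.98 in SKPs, 11.54 and 11.64 in sorted replicates 2 and 20, and 10.46 to 10.51 in the remaining 3. Of these fibroblast markers 5 were higher in SKPs, among them Lum, Dcn and Cd34. The sort selected against CD34, so the Cd34 difference is not independent of the sort. Cd34 RNA was at 10.19 and 10.27 in sorted replicates 2 and 20, against 7.82, 7.59 and 7.31 in replicates 16, 17 and 18. Dpp4 was lower and at background on every SKP array, and Pdgfra had a difference of -0.49 (adjusted p = 0.0935). The 7 immune markers averaged 7.44 to 9.13 in SKPs, against 5.99 to 6.46 in the sorted cells, where Ptprc was at background on every array. Melanocyte markers (5 of 6), Schwann cell markers (4 of 4 measured) and smooth muscle and pericyte markers (5 of 5) were also lower in SKPs. The other melanocyte marker, Mitf, was 3.05-fold higher in SKPs (adjusted p = 1.23e-06). Of 5 skeletal muscle markers 3 were higher in SKPs, Acta1, Myh8 and Tnnt3, and 0 were lower. Without sorted replicates 2 and 20, Myh3 was called lower (-0.94, adjusted p = 0.00491). The skeletal muscle list averaged 7.26 to 7.72 in SKPs and 6.97 to 7.13 in sorted cells. Beside these marker counts, 20.2% of all genes were called higher in SKPs and 16.9% lower. The 6 endothelial markers averaged 6.20 to 6.65 in SKPs, 7.30 and 7.79 in sorted replicates 2 and 20, and 6.27 to 6.41 in the remaining 3. Many of the counts and differences below are therefore also given without sorted replicates 2 and 20. In such mixed samples, fewer cells of a type and less RNA per cell cannot be told apart.

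**Figure D1:**
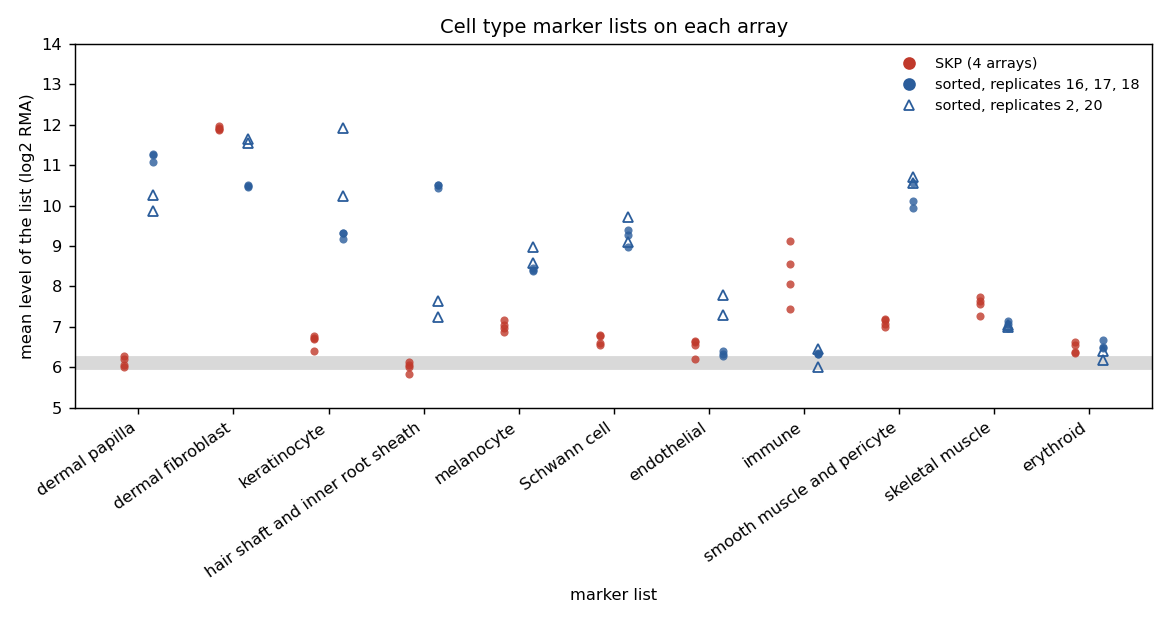
Mean log2 level of each cell type marker list (x axis) on each array (y axis, log2 RMA), with SKP arrays in red and sorted arrays in blue, and the grey band at the background limits of the arrays. Sorted replicates 2 and 20 (open triangles) sit below the other sorted arrays for dermal papilla and hair shaft markers and above them for keratinocyte and fibroblast markers. The dermal papilla markers Sox2 and Prom1, taken alone, were higher on those 2 arrays.

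Both groups carried Hox transcripts of the central paralogues, and most of the last paralogues were at background. All 14 genes with paralogue numbers 4 to 8 were above background on all 9 arrays. So were 4 of 7 genes with numbers 1 to 3 and 8 of 16 with numbers 9 to 13. In a grouping made after the values were seen, all 21 genes numbered 4 to 10 were above background on all 9 arrays. Of 9 numbered 11 to 13, that held for 1, Hoxd11. In all, 26 of 37 Hox genes were above background on all 9 arrays, compared with 61.1% of all genes.

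The 5 genes at background on every array were Hoxb13, Hoxc11, Hoxc12, Hoxd12 and Hoxd13, of the posterior class that acts at the tail end, in the limbs and in the genital region. Hoxd13, which patterns the digits, was at 5.98, 5.68, 5.57 and 5.79 in SKPs, against 5.68, 5.73, 5.56, 5.68 and 5.43 in sorted cells. No difference can be read from values at that level. With the 99th percentile of the olfactory receptors as the limit, 18 Hox genes were above background on all SKP arrays and 18 on all sorted arrays, in place of 26 and 29. Not all of the 21 genes numbered 4 to 10 can be among those 18.

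**Figure D2:**
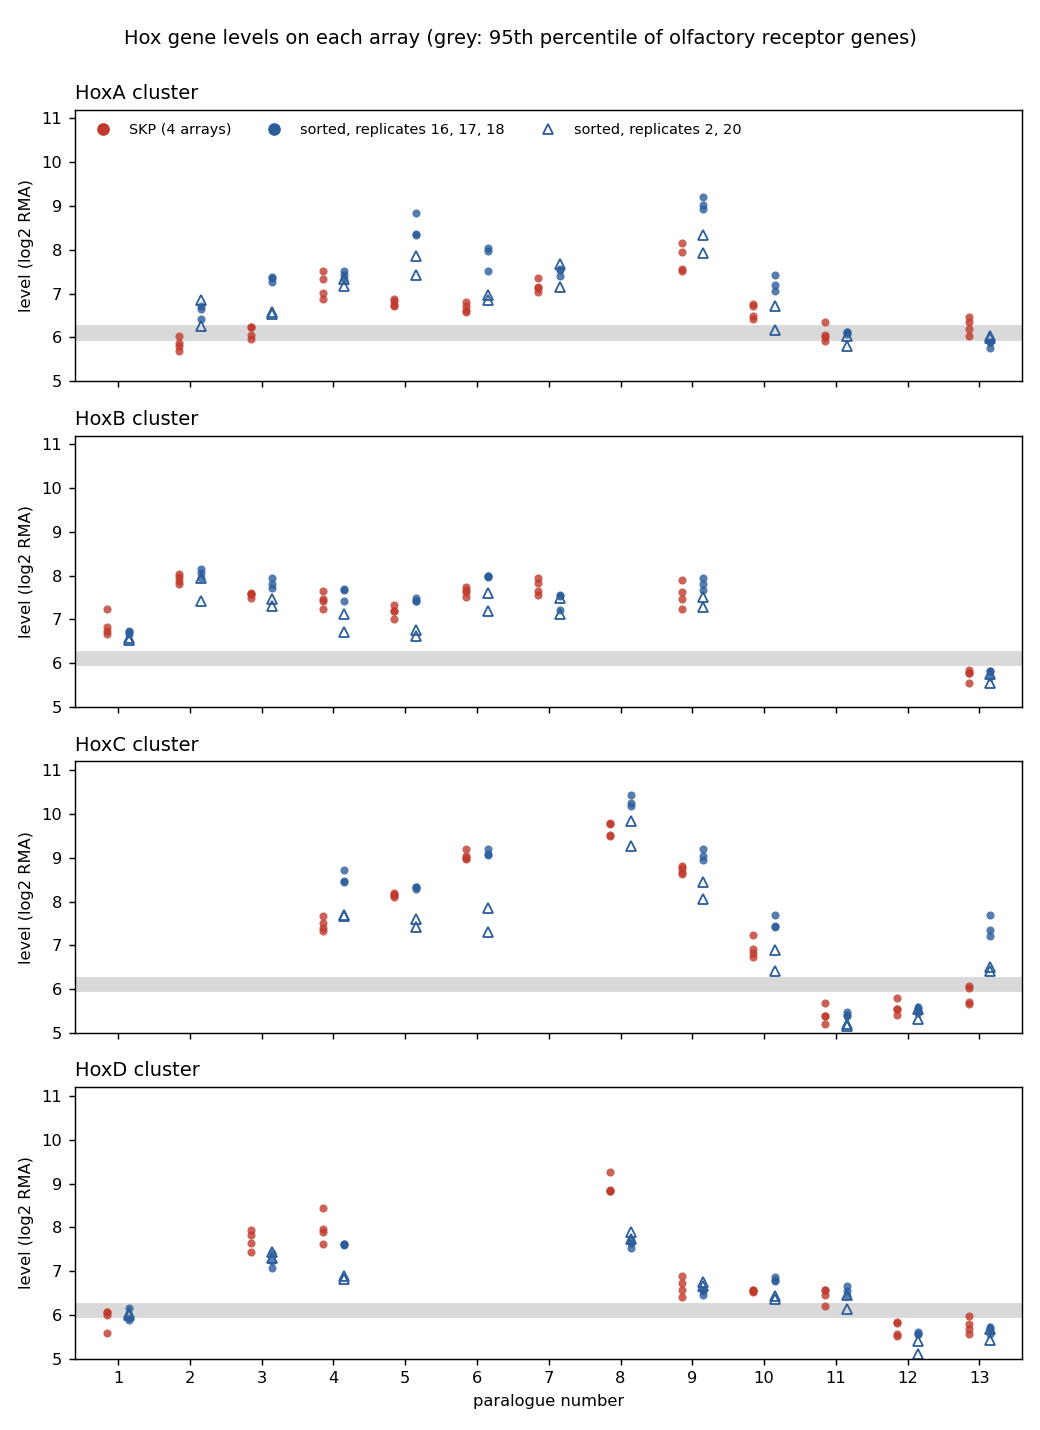
Level of each Hox gene (y axis, log2 RMA) by cluster (panels) and paralogue number (x axis), with 1 point per array, SKP in red left of sorted in blue. Genes numbered 4 to 10 lie above the grey band of background limits in both groups, apart from Hoxa10 on sorted replicate 20, which lies in the band but above the limit of its own array, and most of those numbered 11 to 13 lie in or under it.

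Of the 37 Hox genes, 12 differed between SKPs and sorted cells (32.4%), close to the 37.0% called among all genes, with 5 higher and 7 lower in SKPs against 20.2% and 16.9% of all genes. The median difference over the 37 was 0.00 on the log2 scale, and over all genes it was 0.07. These medians were -0.16 and 0.05 without sorted replicates 2 and 20. A 95% interval that excluded a 2-fold change in both directions was found for 27 Hox genes (73.0%) and for 77.7% of all genes. The 27 include genes at background, and for Hox genes above background on all 9 arrays the count was 19 of 26. 3 Hox genes, Hoxa5, Hoxc13 and Hoxd8, were called with a difference of at least 2-fold, as were 11.7% of all genes (1 higher and 2 lower, against 5.46% and 6.25% of all genes). Among the 26 above background on all 9 arrays, 8 were called (30.8%), against 48.1% of all genes above background. The groups did not overlap in 8 Hox genes, with SKPs above in 2 and below in 6, while 34.0% of all genes had no overlap. Without sorted replicates 2 and 20, 19 Hox genes were called, 3 higher and 16 lower (51.4%, with 46.5% called among all genes, 25.4% higher and 21.1% lower). At least 2-fold differences were then called for 7 Hox genes and for 14.1% of all genes.

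In the HoxA cluster, 5 of 10 genes were lower in SKPs, namely Hoxa2, Hoxa3, Hoxa5, Hoxa6 and Hoxa9, with 16.9% of all genes lower. Hoxa13 was higher, and the median difference was -0.52. Without sorted replicates 2 and 20 the count was 7 lower and 1 higher, with a median of -0.69 and 21.1% of all genes lower.

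Hoxa5, which in the mouse is needed for the lung, the trachea and the cervical to thoracic skeleton, was at 6.73, 6.88, 6.73 and 6.83 in SKPs, against 7.43, 8.84, 8.37, 8.33 and 7.85 in sorted cells (replicates 2, 16, 17, 18 and 20). The SKP arrays were tightly grouped and all lay below the lowest sorted array. The difference was -1.37 ± 0.24 (log2, SE), a 2.59-fold lower level (adjusted p = 0.00128), and 3.30-fold without sorted replicates 2 and 20.

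Hoxa6, its neighbour, was at 6.80, 6.72, 6.58 and 6.62 in SKPs, against 6.85, 8.04, 7.51, 7.96 and 6.97 in sorted cells. Sorted replicates 2 and 20 were within 0.5 of the SKPs and the other 3 were well above them. Hoxa6 was 1.72-fold lower (adjusted p = 0.0288) and 2.22-fold lower without those 2 replicates. The call was lost on leaving out any SKP array or sorted replicate 16, 17 or 18 (adjusted p up to 0.0714).

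Hoxa9, a regulator of blood progenitors as well as of axial position, was at 8.15, 7.94, 7.51 and 7.57 in SKPs, against 8.34, 9.19, 8.94, 9.03 and 7.92 in sorted cells. The groups overlapped, because sorted replicate 20 fell below SKP replicates 3 and 4. It was 1.86-fold lower (adjusted p = 0.0221), or 2.40-fold without sorted replicates 2 and 20, when the groups did not overlap. Leaving out SKP replicate 5 or 6 or sorted replicate 17 or 18 lost the call (adjusted p up to 0.0672).

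The anterior genes Hoxa2 and Hoxa3 were near background in SKPs, so their folds are approximate. Hoxa2, which sets the identity of the second branchial arch, was at 5.86, 5.70, 5.80 and 6.04 in SKPs, all at background, against 6.26, 6.72, 6.42, 6.64 and 6.84 in sorted cells, all above it. The difference was -0.73 (adjusted p = 0.00134), and -0.74 without sorted replicates 2 and 20. Hoxa3, needed for the thymus and parathyroid, was at 6.23, 6.23, 6.06 and 5.97 in SKPs, against 6.59, 7.35, 7.38, 7.27 and 6.54 in sorted cells. It was above background on 2 of 4 SKP arrays and on all 5 sorted arrays, with a difference of -0.90 (adjusted p = 0.00471). Without sorted replicates 2 and 20 the Hoxa3 difference was -1.21 (adjusted p = 6.78e-06).

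Hoxa4 lay at 6.89 to 7.52 in SKPs and 7.17 to 7.52 in sorted cells, with a difference of -0.18 and a 95% interval of -0.48 to 0.12. Hoxa7 had a difference of -0.30 (interval -0.56 to -0.04, adjusted p = 0.0654) and Hoxa10 of -0.32 (interval -0.82 to 0.19, adjusted p = 0.308). Without sorted replicates 2 and 20 Hoxa7 was lower by -0.34 (adjusted p = 0.0136) and Hoxa10 by -0.64 (adjusted p = 0.00213). Hoxa11, above background on 1 SKP array and on 0 sorted arrays, had a difference of 0.04. Hoxa13, a gene of the distal limb and genital tubercle, was called higher by 0.34 (adjusted p = 0.0254), at 6.19, 6.46, 6.03 and 6.35 in SKPs against 6.03, 5.90, 5.90, 5.75 and 6.00 in sorted cells. It was above background on 2 SKP arrays and 1 sorted array, and its call was lost on leaving out SKP replicate 4 or 6 or sorted replicate 16, 17 or 18 (adjusted p up to 0.0754). No change is claimed for it.

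In the HoxD cluster Hoxd3, Hoxd4 and Hoxd8 were higher in SKPs. These were 3 of 9 genes, with 20.2% of all genes higher, 0 HoxD genes lower and a median difference of 0.14. The count was 2 higher and 1 lower without sorted replicates 2 and 20, with a median of 0.11. In that fit 25.4% of all genes were higher and 21.1% lower. Hoxd8, a trunk gene of the central class, was at 8.85, 9.25, 8.83 and 8.83 in SKPs, against 7.90, 7.53, 7.71, 7.64 and 7.74 in sorted cells. All SKP arrays lay clear above the highest sorted array, and the 5 sorted arrays lay close together. The difference was 1.24 ± 0.11 (log2, SE), a 2.36-fold higher level (adjusted p = 2.11e-05), and 2.49-fold without sorted replicates 2 and 20.

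Hoxd3, which shapes the first neck vertebra, was at 7.64, 7.93, 7.44 and 7.82 in SKPs, against 7.30, 7.43, 7.06, 7.24 and 7.44 in sorted cells. The lowest SKP array lay just above the highest sorted arrays. It was 1.34-fold higher (adjusted p = 0.0194), a call lost on leaving out SKP replicate 4 or 6 (adjusted p up to 0.0606). Hoxd4 was at 7.89, 8.45, 7.63 and 7.96 in SKPs, against 6.88, 7.63, 7.63, 7.60 and 6.82 in sorted cells. SKP replicate 5 was level with sorted replicates 16 and 17, and sorted replicates 2 and 20 lay far below. Its 1.59-fold higher level (adjusted p = 0.0413) rested on those 2 arrays. Without them the difference was 0.36 (adjusted p = 0.113), and leaving out either of them or SKP replicate 3, 4 or 6 also lost the call (adjusted p up to 0.117).

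None of the other HoxD genes was called. Hoxd9, Hoxd10 and Hoxd11 had differences of 0.04, -0.10 and 0.01, with 95% intervals of -0.20 to 0.29, -0.35 to 0.16 and -0.26 to 0.28. Without sorted replicates 2 and 20 Hoxd10 was lower by -0.26 (adjusted p = 0.00842). Hoxd1 was at background on 4 SKP arrays and on 4 of 5 sorted arrays.

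In the HoxC cluster Hoxc4 and Hoxc13 were lower in SKPs, 0 of 9 were higher, and the median difference was -0.02, with 16.9% of all genes lower. With sorted replicates 2 and 20 left out, the count was 5 lower and 0 higher, with a median of -0.35 and 21.1% of all genes lower. Hoxc13, which regulates hair keratin genes in the hair matrix and cortex, was at 6.03, 5.71, 5.65 and 6.06 in SKPs, all at background, against 6.42, 7.35, 7.21, 7.69 and 6.51 in sorted cells, all above it. The difference was -1.18 (log2, adjusted p = 0.00453), and -1.56 without sorted replicates 2 and 20, and both are approximate because the SKP values are at background. Sorted replicates 2 and 20, the lowest for Hoxc13, were also the lowest for the hair shaft and inner root sheath markers (7.64 and 7.25 on average, against 10.42 to 10.50 on the other 3). The part of hair shaft cells in the Hoxc13 difference was not tested.

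Hoxc4 was at 7.39, 7.68, 7.52 and 7.34 in SKPs, against 7.68, 8.44, 8.46, 8.71 and 7.69 in sorted cells. SKP replicate 4 came close to sorted replicates 2 and 20, and the other 3 sorted arrays stood clear. It was 1.64-fold lower (adjusted p = 0.0270), and 2.08-fold without sorted replicates 2 and 20. Leaving out SKP replicate 3, 5 or 6 or sorted replicate 16, 17 or 18 lost the call (adjusted p up to 0.0761).

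Hoxc6 showed the widest spread within a group. It was at 8.97 to 9.20 in the 4 SKP arrays, against 7.84, 9.20, 9.06, 9.09 and 7.30 in sorted cells, where replicates 2 and 20 lay more than 1 below the rest. The difference was 0.56 (95% interval -0.29 to 1.40, adjusted p = 0.287). Without those arrays it was -0.06, with an interval of -0.25 to 0.12. Hoxc5, beside it, had a difference of 0.16 (interval -0.28 to 0.60) with all arrays and -0.16 (interval -0.30 to -0.02, adjusted p = 0.0686) without replicates 2 and 20.

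The thoracic genes Hoxc8 and Hoxc9 and the lumbar gene Hoxc10 were not called with all arrays. Hoxc8 was at 9.80, 9.78, 9.49 and 9.53 in SKPs, against 9.84, 10.43, 10.25, 10.19 and 9.26 in sorted cells. Its difference was -0.35 (interval -0.82 to 0.13). For Hoxc9, a regulator of thoracic motor neurons, the difference was -0.02 (interval -0.50 to 0.46), and for Hoxc10 it was -0.23 (interval -0.77 to 0.30). Without sorted replicates 2 and 20 all 3 were lower, by -0.64 (adjusted p = 0.00112), -0.35 (adjusted p = 0.0104) and -0.58 (adjusted p = 0.00573). Leaving out sorted replicate 20 alone brought Hoxc8 past the threshold (adjusted p = 0.0116).

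In the HoxB cluster the 95% interval lay within 2-fold for 9 of 9 genes, compared with 77.7% of all genes. Hoxb13, which is among them, was at background on every array, so no difference can be read from it. The median difference was 0.02, or -0.15 without sorted replicates 2 and 20. Hoxb2, which acts in the hindbrain, was at 7.81, 7.88, 8.03 and 7.97 in SKPs, against 7.42, 8.15, 7.95, 8.06 and 7.95 in sorted cells, with a difference of 0.02 (interval -0.29 to 0.33). For Hoxb3 the difference was -0.08 (interval -0.37 to 0.20), for Hoxb4 0.12 (interval -0.31 to 0.55) and for Hoxb5 0.03 (interval -0.40 to 0.47). For Hoxb6 it was -0.12 (interval -0.48 to 0.25) and for Hoxb9 -0.08 (interval -0.45 to 0.28). Hoxb1 had a difference of 0.23 (interval -0.04 to 0.49).

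Hoxb7 was the only HoxB gene called, at 7.66, 7.56, 7.83 and 7.95 in SKPs against 7.12, 7.53, 7.21, 7.56 and 7.50 in sorted cells. SKP replicate 4 was level with sorted replicate 18, so the groups touched. It was 1.29-fold higher (adjusted p = 0.0396). That call was lost without SKP replicate 3, 5 or 6, without sorted replicate 2 or 17, and without sorted replicates 2 and 20 together (adjusted p up to 0.118). Without both replicates, 3 of 9 HoxB genes were lower and 0 higher, with 21.1% of all genes lower and 25.4% higher. The lower ones were Hoxb3 by -0.26 (adjusted p = 0.0224), Hoxb5 by -0.27 (adjusted p = 0.0318) and Hoxb6 by -0.35 (adjusted p = 0.00387).

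**Figure D3:**
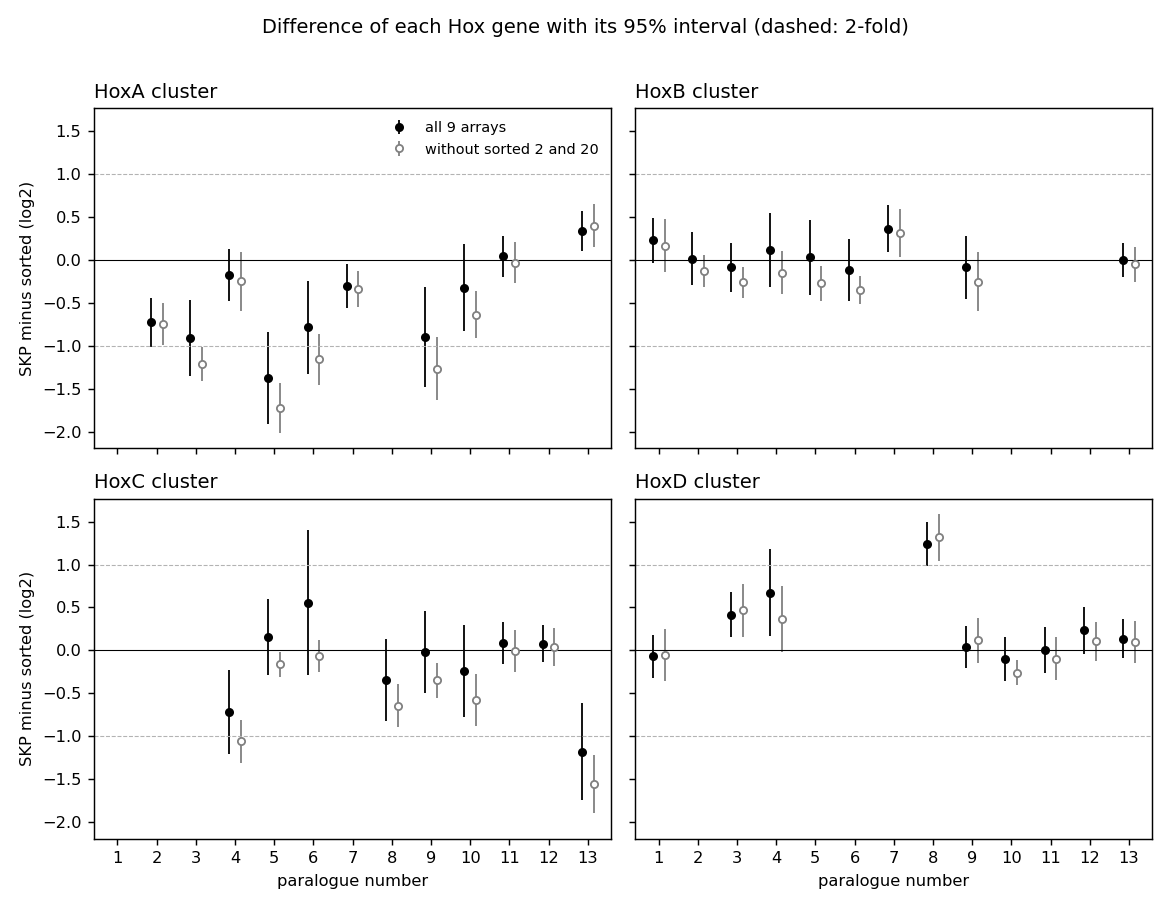
Difference between SKPs and sorted cells (y axis, log2, SKP minus sorted) for each Hox gene by cluster (panels) and paralogue number (x axis), with 95% intervals, from all 9 arrays (black) and without sorted replicates 2 and 20 (grey). HoxA genes 2 to 9 lie below 0, Hoxd3, Hoxd4 and Hoxd8 lie above it, and HoxB genes lie within the dashed 2-fold lines.

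Paralogues of the same number differed in direction in some groups and not in others. In group 3, Hoxa3 was lower (-0.90), Hoxd3 higher (0.42), and Hoxb3 had a difference of -0.08. Group 4 held a lower gene, Hoxc4 (-0.72), a higher gene, Hoxd4 (0.67, not called without sorted replicates 2 and 20), and Hoxa4 and Hoxb4 at -0.18 and 0.12. In group 9, Hoxa9 was lower (-0.89), and Hoxb9, Hoxc9 and Hoxd9 had differences of -0.08, -0.02 and 0.04. Without sorted replicates 2 and 20 these 3 were at -0.25, -0.35 (called, adjusted p = 0.0104) and 0.12. In group 10 all 3 differences were below 0, and none was called with all arrays. The difference between paralogues was not itself tested.

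The 5 sorted arrays were not alike in their Hox levels. In 24 of 37 Hox genes, replicates 2 and 20 both lay below all of the other 3, against 26.1% of all genes, and in 3 they both lay above, against 22.6%. The 24 genes were 6 of 10 HoxA genes, 7 of 9 HoxB genes, 8 of 9 HoxC genes and 3 of 9 HoxD genes. The mean over the 9 HoxC genes was 7.34 to 7.52 in SKPs, 7.25 and 7.04 in sorted replicates 2 and 20, and 7.85 to 7.95 in the remaining 3. Over the 9 HoxD genes it was 6.65 to 6.96 in SKPs, 6.47 and 6.48 in sorted replicates 2 and 20, and 6.56 to 6.66 in the remaining 3. On the same arrays the list means were higher for keratinocyte, fibroblast and endothelial markers and lower for dermal papilla and hair shaft markers. Not every member moved with the mean of its list. The part of any of these cells in the Hox levels was not tested.

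**Figure D4:**
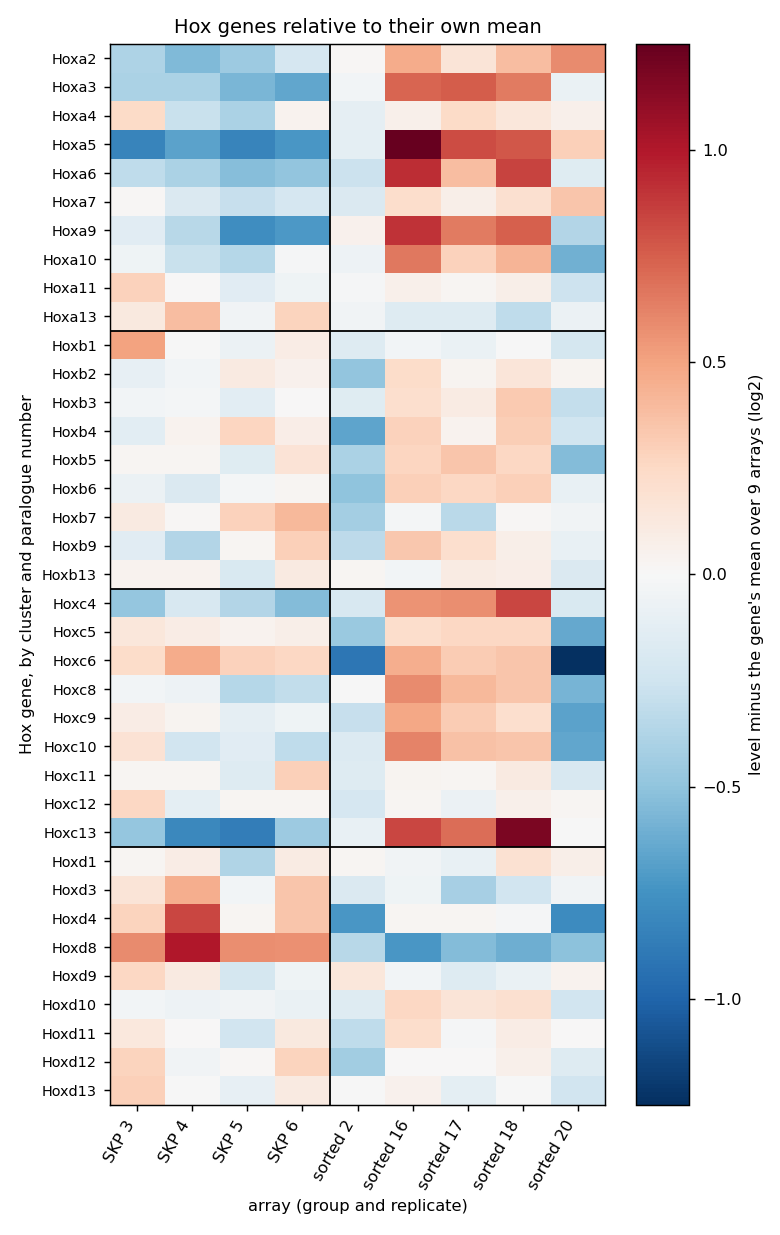
Level of each Hox gene (rows, by cluster and paralogue number) on each array (columns, SKP left of sorted) relative to the mean of that gene over the 9 arrays (colour, log2). Sorted replicates 16, 17 and 18 are red for most HoxA and HoxC genes, replicates 2 and 20 are paler or blue, and Hoxd8 is red on all 4 SKP arrays.

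The upstream sequences of the Hox genes with the largest difference in each direction are shown, and a link between sequence and direction was not tested. RefSeq start sites were found for 21 of the 37 Hox genes (build GRCm38.p6). The 250 bases before the start of Hoxd8 (chr2:74704365-74704614, plus strand), which was higher in SKPs, and of Hoxa5 (chr6:52204588-52204837, minus strand), which was lower, are given 5′ to 3′ with CG dinucleotides in capitals.
Hoxd8: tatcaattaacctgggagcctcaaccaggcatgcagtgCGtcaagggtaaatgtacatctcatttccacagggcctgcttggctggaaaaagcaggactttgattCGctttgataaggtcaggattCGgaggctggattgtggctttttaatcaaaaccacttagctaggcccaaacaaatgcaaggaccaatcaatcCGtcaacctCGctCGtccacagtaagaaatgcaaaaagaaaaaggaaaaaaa
Hoxa5: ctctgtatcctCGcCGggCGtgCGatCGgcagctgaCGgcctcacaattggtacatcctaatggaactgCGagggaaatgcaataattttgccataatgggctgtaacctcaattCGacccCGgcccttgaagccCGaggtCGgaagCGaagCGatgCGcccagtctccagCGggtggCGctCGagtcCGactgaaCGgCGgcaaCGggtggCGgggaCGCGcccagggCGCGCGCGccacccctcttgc
The Hoxd8 window held 6 CG dinucleotides, a number reached by 50.5% of 27025 promoters of the same length. The Hoxa5 window held 28, reached by 7.26%. Both numbers lie within the range of the 21 Hox promoters, which held 2 to 35 with a median of 12. Both strands were searched for AGGTCA, a unit of retinoic acid receptor sites, which was found once upstream of Hoxd8 and nowhere in the Hoxa5 window. It occurs in 13.8% of all promoters and in 6 of the 21 Hox promoters. Neither window held TATAAA, a core promoter motif (13% of all promoters), TGATTNAT, a composite site of Pbx and Hox proteins (2.99%), or TTTATG, a Cdx site (11.1%).

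The miRNA genes inside the Hox clusters are shown because Mir196a-1 was higher in SKPs. They form a pair of families, each with a shared seed (bases 2 to 8, in capitals, RefSeq, build GRCm38.p6).
miR-10a-5p: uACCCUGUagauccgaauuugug
miR-10b-5p: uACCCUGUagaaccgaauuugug
miR-196a-5p: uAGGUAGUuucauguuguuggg
miR-196b-5p: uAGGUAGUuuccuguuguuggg
The mature sequences lie at chr11:96317186-96317208 (plus strand, Mir10a), chr2:74726074-74726096 (plus, Mir10b), chr11:96265187-96265208 (plus, Mir196a-1), chr15:102973365-102973386 (plus, Mir196a-2) and chr6:52230129-52230150 (minus, Mir196b). Counted from the 5′ end, miR-10b-5p differs from miR-10a-5p by U12A, and miR-196b-5p from miR-196a-5p by A12C. The miR-196 family is known for cleaving the Hoxb8 transcript. The arrays measure RNA that covers the precursor and not the mature miRNA.

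Mir196a-1, which lies in the HoxB cluster, was at 6.56, 6.66, 6.66 and 6.63 in SKPs, against 5.81, 6.30, 5.92, 6.29 and 5.37 in sorted cells. Every SKP array was above background, as were 2 of 5 sorted arrays. The difference was 0.69 (log2, adjusted p = 0.0109), and 0.46 without sorted replicates 2 and 20, and both are approximate because the sorted mean is not above background. Mir196a-2 and Mir196b, which encode the same or a sister miRNA in HoxC and HoxA, had differences of -0.01 and -0.05. Mir10a and Mir10b were called higher by 0.82 (adjusted p = 0.0162) and 0.62 (adjusted p = 0.0234), but all their values, between 2.79 and 4.99, were far under background, and no change is claimed. In all, 3 of the 8 measured non-coding genes of the clusters were called, all higher (37.0% called among all genes), with a median difference of 0.17. Without sorted replicates 2 and 20 it was 2 (46.5% called among all genes), with a median of 0.03.

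Hox proteins bind DNA with the cofactors Pbx, Meis and Pknox, and RNA of 8 of 9 listed cofactor genes was measured here. Pknox2 lay close to the background limit on the SKP arrays, at 6.27 to 6.32. All 8 measured were above background on all 9 arrays, with 1 higher, 1 lower and a median difference of -0.25, while 20.2% of all genes were higher and 16.9% lower. When sorted replicates 2 and 20 were left out, 4 were lower (Pbx2, Pbx3, Meis1 and Meis2) and 1 higher, while 21.1% of all genes were lower and 25.4% higher. Pbx3 was at 7.81, 7.94, 7.72 and 7.84 in SKPs, against 8.38, 8.29, 8.27, 8.48 and 8.83 in sorted cells, a 1.54-fold lower level (adjusted p = 0.00226). Pknox1 was 1.31-fold higher (adjusted p = 0.0469), a call lost on leaving out SKP replicate 3, 4 or 6 or sorted replicate 16, 17 or 18 (adjusted p up to 0.0994). Meis1 was not called (-0.63, adjusted p = 0.214), and without sorted replicates 2 and 20 it was 2.30-fold lower (adjusted p = 2.12e-05).

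Polycomb proteins keep Hox genes silent and Trithorax proteins keep them active. Of 21 measured genes of both families, 7 were lower and 1 higher in SKPs, with a median difference of -0.21. These 8 are a share near the 37.0% called among all genes, of which 16.9% were lower and 20.2% higher. In the fit without sorted replicates 2 and 20, 9 were lower and 3 higher, with 46.5% called among all genes. Kdm6a and Kdm6b, which remove the methyl mark that Polycomb places on histone H3, were among the lower ones. Kdm6a was at 8.35, 8.80, 8.20 and 8.39 in SKPs, against 9.92, 10.01, 9.95, 9.94 and 9.62 in sorted cells, a 2.73-fold lower level (adjusted p = 1.81e-05). No SKP array came within 0.5 of a sorted array. Kdm6b was 1.77-fold lower (adjusted p = 0.00347), or 2.12-fold without sorted replicates 2 and 20. Cbx7, a Polycomb reader protein, was 1.99-fold lower (adjusted p = 0.0220), or 2.74-fold without sorted replicates 2 and 20, a call lost without SKP replicate 4 or 5 or sorted replicate 17 (adjusted p up to 0.0633). Men1, the menin cofactor of a Trithorax complex, was 1.26-fold higher (adjusted p = 0.0139). Ezh2, the main Polycomb methyltransferase, had a difference of 0.15 (interval -0.13 to 0.43). Ezh1, of the same list, was 1.97-fold lower (adjusted p = 0.00969), or 2.58-fold without sorted replicates 2 and 20.

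Retinoic acid switches on Hox genes of low paralogue number in the embryo. Of 13 measured genes of its pathway, 6 were lower in SKPs and 1 higher, with a median difference of -0.25, while 16.9% of all genes were lower and 20.2% higher. Leaving out sorted replicates 2 and 20 gave 7 lower and 1 higher, with 21.1% of all genes lower and 25.4% higher. Aldh1a3, an enzyme that makes retinoic acid, was at 6.62 to 7.34 in the 4 SKP arrays, against 7.96, 10.62, 10.11, 10.48 and 7.96 in sorted cells. Replicates 2 and 20 lay between the SKPs and the other sorted arrays. It was 5.44-fold lower (adjusted p = 0.00834), or 10.7-fold without them. The receptor Rara was 2.04-fold lower (adjusted p = 2.11e-04), or 1.79-fold without sorted replicates 2 and 20. Crabp1, which binds retinoic acid in the cytoplasm, was 6.21-fold higher (adjusted p = 0.00843), or 3.09-fold without sorted replicates 2 and 20.

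Of 6 Cdx and ParaHox genes, which act upstream of or beside the Hox clusters, limma called 0, and 2 had an unadjusted p under 0.05. Those 2 are among 4 of the 6 that were at background on all 9 arrays, so no difference can be read from them. Cdx1, the brightest of them, had a difference of 0.17 (adjusted p = 0.332). Of 15 other positional regulators, 4 were lower and 0 higher, with a median of -0.07, while 37.0% of all genes were called and 16.9% were lower. There were 4 lower and 1 higher without sorted replicates 2 and 20, and the median was 0.06. In that fit 21.1% of all genes were lower and 25.4% higher. Tbx5, a forelimb gene, was at 5.75, 5.96, 6.45 and 6.64 in SKPs, against 6.36, 8.63, 8.20, 8.25 and 6.65 in sorted cells. It was above background on 2 of 4 SKP arrays, so its differences are approximate. They were -1.42 (log2, adjusted p = 0.0377) and -2.16 without sorted replicates 2 and 20, and leaving out any array other than those 2 lost the call (adjusted p up to 0.106). Dlx1, a gene of the head skeleton and forebrain, was also above background on 2 of 4 SKP arrays. Its approximate difference was -0.87 (adjusted p = 0.00432), and -1.02 without sorted replicates 2 and 20. Tbx15, which patterns dorsal skin, was 1.41-fold lower (adjusted p = 0.0360) but not without sorted replicates 2 and 20 (-0.30, adjusted p = 0.0660). Its call was also lost without SKP replicate 3, 5 or 6 or sorted replicate 17 or 20 (adjusted p up to 0.0975). Meis1, Kdm6b, Ezh1, Ezh2, Tbx15, Mir10b, Mir196a-2 and Mir196b were named after their values were seen.

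**Figure D5:**
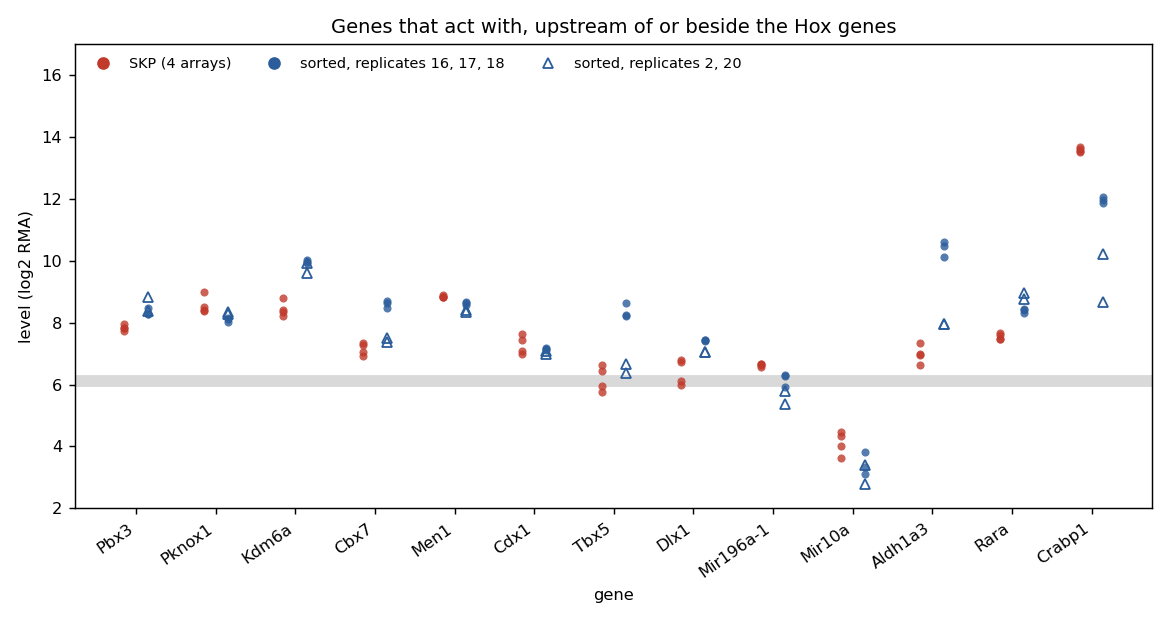
Level (y axis, log2 RMA) of the genes named from the lists of cofactors, chromatin regulators, Cdx and ParaHox genes, other positional regulators, miRNA genes and retinoic acid genes (x axis), with 1 point per array, SKP in red left of sorted in blue. Kdm6a, Rara and Pbx3 are lower on all 4 SKP arrays than on all 5 sorted arrays, and sorted replicates 2 and 20 lie nearest the SKPs for Aldh1a3 and Cbx7.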

How the data were processed

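The deposited values are log2 RMA levels, 1 per probe set and array, for 35556 probe sets. RMA, Affymetrix Expression Console and limma are named, without versions or settings, per the submitters' processing notes. The genome build is not given in the sources used here. Of 21789 probe sets with 1 gene symbol, 19938 genes were kept, with the brightest probe set by mean over 9 arrays where a gene had several (999 genes). Differences of SKP minus sorted cells were fitted over all genes with limma 3.58.1 (lmFit and eBayes, no trend, not robust, two-sided) in R 4.3.3. The calculation was tested on simulated data. Alternatives were repeated quantile normalization, median centring, a filter on the lowest 33.3% of genes, the mean or each of several probe sets, trend and robust fitting, array weights, an adjusted p under 0.01, other background limits, each array left out, and sorted replicates 2 and 20 left out together.

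The members, lists and alternatives were chosen with earlier results of these data known. Named genes were all Hox genes, and in each list of other genes up to 2 called members in each direction, by size of difference, or else the member with the highest mean. Close paralogues may share probes.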

Additional observations from a re-analysis of the deposited data

Results flagged for a closer look

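In 74 sets of values (37 Hox genes in each of the SKP and sorted groups), 4 held an array far from the others of its group by Dixon's test, and chance flags about 1 in 20. Hoxd8 was at 9.25 on SKP replicate 4, against 8.83 to 8.85 on the other 3, so the spread of its SKP group comes from 1 array that lies further from the sorted cells. Hoxd1 was at 5.59 on SKP replicate 5, against 5.99 to 6.07 on the other 3, all at background. Hoxb2 was at 7.42 on sorted replicate 2, against 7.95 to 8.15 on the other sorted arrays. Hoxa11 was at 5.79 on sorted replicate 20, against 6.04 to 6.13, all at background.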

How the results depend on the processing

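5 Hox calls held under every alternative run, Hoxa2, Hoxa3, Hoxa5 and Hoxc13 (lower in SKPs) and Hoxd8 (higher). Leaving out sorted replicates 2 and 20 together gave 3 Hox genes higher and 16 lower in place of 5 and 7, 7 of them called and at least 2-fold in place of 3, and turned Hoxb5 to -0.27 from a difference near 0. Array weights gave 13 lower, 7 at least 2-fold, 6145 genes higher among all genes in place of 4020, and 14 context genes higher in place of 6. An adjusted p under 0.01 left 1 Hox gene higher, 4 lower and 1 context gene higher. Centring each array on its median gave 12 context genes higher and, over all genes, 5296 higher and 2932 lower in place of 4020 and 3366. Removing the lowest 33.3% of genes gave 3 context genes higher. Hoxb1 was called under repeated quantile normalization and Hoxd12 under median centring, and the other scaling results moved no Hox call. With the 99th percentile as background limit, 18 Hox genes were above it on all sorted arrays in place of 29. With 1 array left out, Hox genes higher ranged from 1 to 4, lower from 4 to 9, at least 2-fold from 3 to 5, and context genes higher from 3 to 7 and lower from 12 to 20. The Hox genes higher fell to 3 without SKP replicate 3 or sorted replicate 2 or 17, to 2 without SKP replicate 4 and to 1 without SKP replicate 6. The lower ones fell to 4 without SKP replicate 5 or 6 or sorted replicate 17 or 18, and without sorted replicate 20 the 2-fold count was 5. Context genes higher fell to 3 without SKP replicate 6. The cause of these shifts was not tested. No paired analysis was possible because the groups share no replicate numbers. Signal near background limits Hoxa2, Hoxa3, Hoxa13, Hoxc13, Mir196a-1, Tbx5 and Dlx1.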

Other observations

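A probe set annotated to both Hoxb8 and Hoxb7 was left out of the members. It was at 6.88, 6.55, 6.58 and 6.79 in SKPs, against 6.71, 7.49, 7.47, 7.64 and 6.97 in sorted cells. On it, sorted replicates 16, 17 and 18 lay above every SKP array, whereas for the Hoxb7 probe set SKPs were higher (0.37, adjusted p = 0.0396). The shared probe set was not tested, and which of the genes it reports is not known.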
